A study of Mus musculus with 2 samples.

Results

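The digestive serine proteases of the pancreas were read as 8 genes, the trypsinogens Prss2 and Prss3, the chymotrypsinogens Ctrb1, Ctrl and Ctrc, and the elastases Cela1, Cela2a and Cela3b. Members were taken by their symbol in the platform annotation, which gave 14 probe sets that carried 1 symbol only, and the 8 genes are part of 18193 genes on the array. RNA of whole pancreas came from male offspring aged 10 weeks and was pooled within each group, and each pool was hybridised to 1 Affymetrix Mouse Genome 430 2.0 Array. The dams were C57BL/6J mice that ate a control diet in the control group and a diet lacking enough threonine, an essential amino acid, in the threonine-deficient group, in both cases between embryonic days 12.5 and 14.5. Offspring of both groups were weaned at 3 weeks and then had control diet, so the labelled difference between the groups was the prenatal diet. Each group was 1 pool on 1 array, so effects of the diet cannot be told apart from differences between pools or arrays. How many animals went into a pool is not stated in the labels.

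Serine proteases of this family are made by acinar cells, the exocrine cells of the pancreas, as inactive zymogens that are packed into granules and secreted into the gut. There, enteropeptidase cuts trypsinogen to trypsin, and trypsin in turn activates the other zymogens. Trypsin cleaves after lysine and arginine, chymotrypsin after large hydrophobic residues, and elastases mostly after small aliphatic residues. Premature activation inside the gland is held back by trypsin inhibitors of acinar cells and, where its gene is functional, by chymotrypsin C, which degrades trypsinogen.

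Acinar genes of this kind are driven by PTF1, a complex that contains the basic helix-loop-helix factor PTF1A and RBPJL, and that binds an E-box followed about a helical turn later by a TC-box. The 250 bases before the annotated start of 7 of the 8 members were read from RefSeq promoter sequences (build GRCm38.p6), and Ctrc had no entry there. The upstream windows of Cela1, Ctrb1, Cela3b and Prss2 are shown because they cover the 3 enzyme classes and differ in how these motifs are arranged. The windows run from 5′ to 3′ and end at the base before the start. Capitals mark matches to the E-boxes CACCTG and CAGCTG, the TC-box TTTCCC, the GATA site CTTATC (these on either strand) and the TATA box TATAAA (on the gene's strand), and none of the motifs overlapped another in these windows.
Cela1, chr15:100687921-100688170, minus strand: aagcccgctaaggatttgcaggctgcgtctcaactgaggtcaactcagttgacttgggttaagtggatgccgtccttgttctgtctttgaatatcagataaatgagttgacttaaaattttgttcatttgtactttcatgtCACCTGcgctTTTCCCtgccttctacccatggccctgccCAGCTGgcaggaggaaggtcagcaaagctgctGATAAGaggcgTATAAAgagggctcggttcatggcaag
Ctrb1, chr8:111691011-111691260, minus strand: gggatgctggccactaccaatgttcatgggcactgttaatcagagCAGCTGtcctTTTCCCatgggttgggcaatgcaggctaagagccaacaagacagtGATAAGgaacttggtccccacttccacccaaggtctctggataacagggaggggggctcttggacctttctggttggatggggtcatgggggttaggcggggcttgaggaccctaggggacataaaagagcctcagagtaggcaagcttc
Cela3b, chr4:137430521-137430770, minus strand: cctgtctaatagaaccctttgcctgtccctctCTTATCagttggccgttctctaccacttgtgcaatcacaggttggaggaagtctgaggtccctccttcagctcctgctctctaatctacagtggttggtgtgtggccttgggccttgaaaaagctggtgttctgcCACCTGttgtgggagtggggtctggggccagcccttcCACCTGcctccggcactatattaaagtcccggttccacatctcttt
Prss2, chr6:41521526-41521775, plus strand: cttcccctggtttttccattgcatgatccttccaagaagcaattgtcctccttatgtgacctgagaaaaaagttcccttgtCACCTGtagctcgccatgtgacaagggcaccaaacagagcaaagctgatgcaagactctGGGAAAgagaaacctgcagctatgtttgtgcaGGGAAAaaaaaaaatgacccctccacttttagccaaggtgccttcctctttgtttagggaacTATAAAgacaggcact

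An E-box of the form CACCTG was found in 6 of the 7 windows, in Cela1, Cela2a, Cela3b, Ctrl, Prss2 and Prss3, and in 17.2% of all 32851 windows of that length. The TC-box occurred in 4 of the 7 and in 21.9% of all windows, the GATA site in 4 and in 6.55%, the TATA box in 3 and in 7.59%, and the E-box CAGCTG in 4 and in 13.0%. The joint form CANNTGNNNNTTTCCC, in which the TC-box starts 10 bases after the E-box, was present in Cela1 as CACCTGcgctTTTCCC, 109 bases before the start, and in Ctrb1 as CAGCTGtcctTTTCCC, 205 bases before the start. It was found in 26 of the 32851 windows, or 0.0791%. These matches are letters in a window and not measured binding, and the motifs were chosen after the sequences had been seen.

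**Figure D1:**
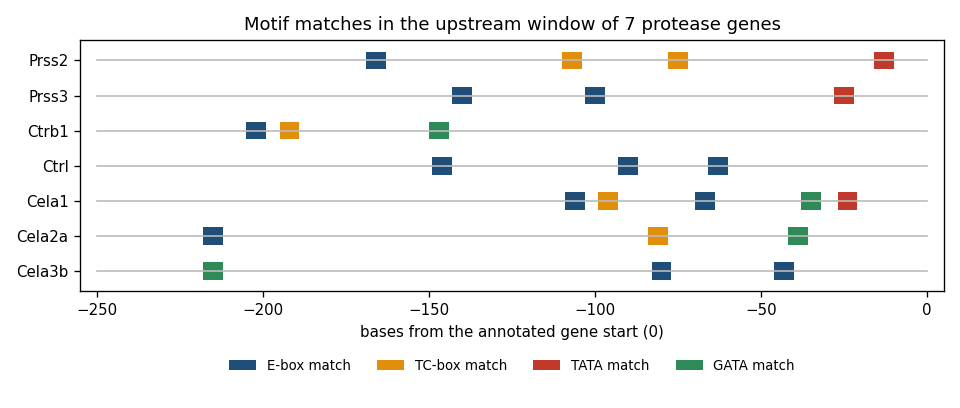
Motif matches in the upstream windows of 7 protease genes, with distance from the annotated gene start in bases on the horizontal axis and 1 line per gene. Coloured blocks are matches to the E-boxes CACCTG and CAGCTG, the TC-box, the TATA box and the GATA site; in Cela1 and Ctrb1 an E-box is followed directly by a TC-box.

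Of the 8 genes, 7 had a higher signal in the threonine-deficient pool and 1, Ctrc, a lower signal; with quantile normalisation, which gives both arrays the same distribution, Prss2 also turned lower and 6 stayed higher. Here a gene is read by its brightest probe set, and the log2 ratio is that of the threonine-deficient over the control pool. The median log2 ratio of the 8 genes was 0.12, or 0.06 with quantile normalisation, and the values ran from −0.16 for Ctrc to 0.18 for Cela2a. Over the 10758 genes above the floor (a signal of 264.9, set because detection calls were not used here), 50.1% had a log2 ratio above 0 and 49.9% below, and the median was 0.00. Cela2a, Ctrb1 and Ctrl were at least 1.1-fold higher, against a background of 33.4% of genes, and Ctrc was at least 1.1-fold lower, against 32.7%. Ctrc stayed below 0 but no longer passed 1.1-fold after loess centring or when centred on the hybridisation controls. That centring moves every gene up alike: 6 members were then at least 1.1-fold higher, but so were 41.3% of all genes. No member was 1.5-fold apart in either direction, where 7.2% of genes were at least that much higher and 5.36% lower. None was 2-fold apart, and the background for this was 1.28% higher and 0.874% lower.

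There was 1 array per group, so no test of these differences exists, and they describe 2 pools. Each ratio is therefore set beside a local spread, which is a scaled median absolute deviation taken over the ratios of the 200 genes nearest in signal and was 0.10 for every member. The members rank from 5 to 63 by signal among 10758 genes, so most of these 200 genes were dimmer and they include other members. Nearly the same 200 genes thus served every member, and the spread is not that of genes equally bright. The local spread covers measurement noise and differences among unrelated genes, not differences among animals. The largest absolute ratio, that of Cela2a, came to 1.82 local spreads.

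The trypsinogens had the lowest ratios of the 7 higher genes, although Prss3 and Cela3b differed by far less than a local spread. Prss2, which encodes anionic trypsinogen, went from a control signal of 242235 to 245908 after threonine deficiency in its brightest probe set, a log2 ratio of 0.02. Its other probe sets went from 217346 to 233765 (0.11), from 204135 to 225872 (0.15) and from 175371 to 178112 (0.02). The 4 readings of Prss2 thus shared a sign as deposited, though 3 of them were below 0 with quantile normalisation, and spanned 0.12 on the log2 scale, beside values from 0.02 to 0.18 over the 7 higher genes. Prss3, a trypsinogen gene of the same cluster, went from 127298 to 136093 (0.10) in its only probe set, below the Prss2 readings of 0.11 and 0.15.

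Among the chymotrypsinogens, the 3 genes did not move together. Ctrb1, which encodes chymotrypsinogen B, went from 145070 to 161651, a log2 ratio of 0.16, or 1.61 local spreads. Ctrl, a chymotrypsin-like protease, went from 137654 to 153409, also 0.16. Both were 1.11-fold higher in the threonine-deficient pool. Ctrc, chymotrypsin C, went the other way, from 64753 to 58030, a log2 ratio of −0.16 or 1.12-fold lower, −1.63 local spreads. The RefSeq table, which is built on the C57BL/6J genome, lists Ctrc as a transcribed pseudogene and the other 7 members as protein-coding. Ctrc was read by a single probe set, so its direction has no second reading.

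The elastases were all higher in the threonine-deficient pool, under each scaling run. Cela1 went from 188258 to 206995, a log2 ratio of 0.14. Cela2a went from 165696 to 187359, a log2 ratio of 0.18 and the highest of the 8 genes. Cela2a stands directly beside Ctrc on chromosome 4 in the gene order of the RefSeq table, and these neighbours had the highest and the lowest ratio of the set. The lead of Cela2a over Ctrb1 and Ctrl (0.16 each) was far less than a local spread, and 1 Cela3b probe set also read 0.18.

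Cela3b was read by 4 probe sets, and all of them were higher in the threonine-deficient pool. The brightest went from 191791 to 205368 (0.10), and the others from 180104 to 196800 (0.13), from 150038 to 165400 (0.14) and from 127147 to 143796 (0.18). The ratios spanned 0.08, and in these 4 probe sets of a single gene a dimmer probe set had a larger ratio throughout.

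**Figure D2:**
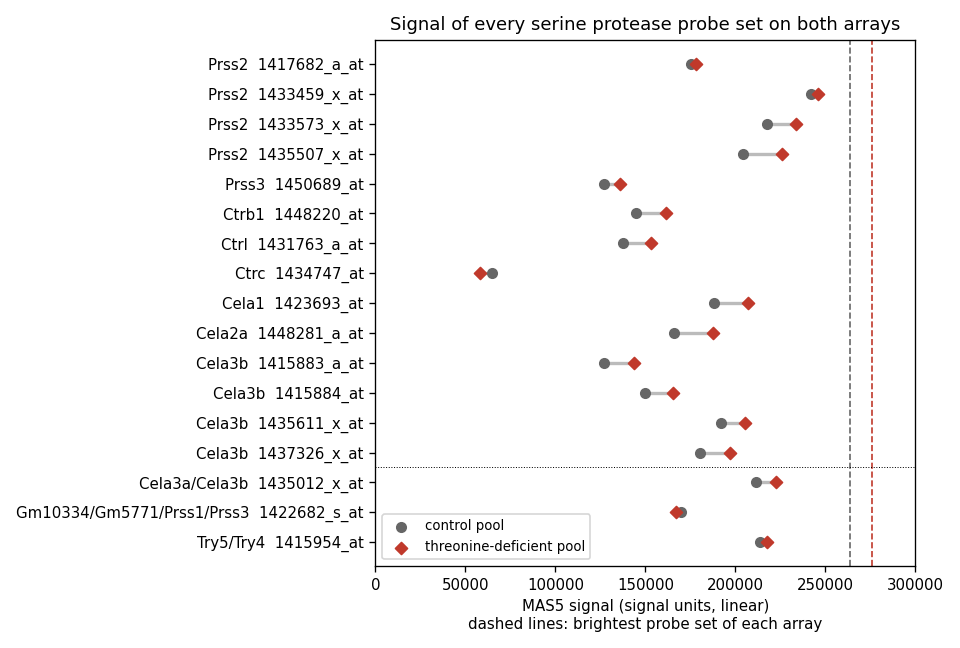
MAS5 signal of every protease probe set in signal units on a linear axis, with the control pool as grey circles and the threonine-deficient pool as red diamonds; dashed lines mark the brightest probe set of each array. Below the dotted line are 3 probe sets that carry several gene symbols. In 13 of the 14 probe sets with 1 symbol the threonine-deficient pool lies to the right (10 with quantile normalisation), and for Ctrc it lies to the left.

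Most of these signals lay near the top of the arrays. Of the 14 probe sets, 12 reached at least 50% of an array's brightest probe set, whose signal was 263446 on the control array and 275999 on the other. The brightest Prss2 probe set reached 91.9% and 89.1% of these maxima. Only Prss3, at 48.3% and 49.3%, and Ctrc, at 24.6% and 21.0%, stayed below 50% on both arrays. The dimmest Cela3b probe set, at 48.3% and 52.1%, passed this limit on the threonine-deficient array only, so the limit separates it from Prss3 by its own change and not by its control signal. Whether the ratios of the brighter probe sets were compressed was not tested. Together the 14 probe sets held 4.34% of all control signal and 4.68% of the signal after threonine deficiency.

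The suffix of a probe set is a guide to whether its probes can read more than a single transcript. Of the 14, 5 ended in _at, 4 in _a_at (transcripts of the same gene) and 5 in _x_at (some probes alike to other transcripts). Both _a_at and _x_at are called sharing suffixes here, although _a_at marks transcripts of the same gene. All 4 Prss2 probe sets carried a sharing suffix, _a_at for the dimmest and _x_at for the others. In the 5 _at probe sets, which read Cela1, Cela3b, Ctrb1, Ctrc and Prss3, the median log2 ratio was 0.14, with 4 above 0 and Ctrc below. In the 9 with a sharing suffix it was 0.13, with all 9 above 0.

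The annotation gives several symbols to 3 further probe sets of this family, from which no gene was named. The one for Try4 and Try5, neighbours in the trypsinogen cluster of chromosome 6, went from 213636 to 217604 (0.03). Its name ends in _at, so a plain suffix did not exclude several symbols. The one for Prss1, Prss3, Gm5771 and Gm10334 went from 170034 to 167118 (−0.02), so the shared trypsinogen reading did not show the 0.10 of the probe set that names Prss3 alone. The one for Cela3a and Cela3b went from 211360 to 222794 (0.08), below the 4 readings of Cela3b alone. The 250 upstream bases of Cela3a and Cela3b were 83.3% identical in a global alignment, and those of Prss1 and Gm5771 83.7%, while Prss2 and Prss3 shared 54.7%.

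**Figure D3:**
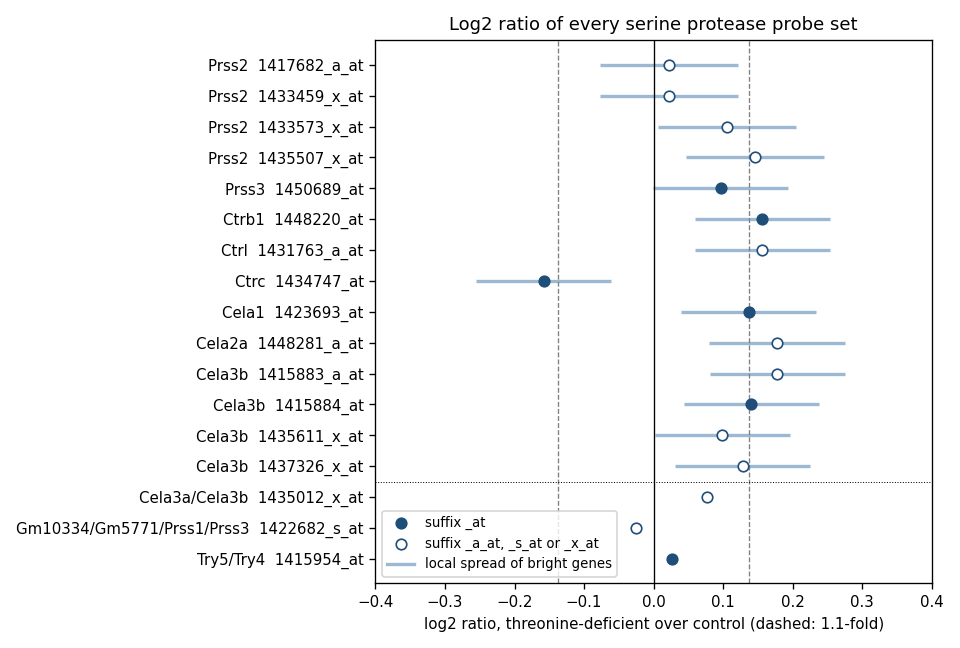
Log2 ratio of the threonine-deficient over the control pool for each probe set; filled circles end in _at and open circles in a sharing suffix, and blue bars are plus and minus 1 local spread of genes of like signal, not replicate error. Dashed lines mark 1.1-fold. The trypsinogen readings shown here, which leave out 2210010C04Rik, lie between −0.02 and 0.15, the elastase readings between 0.08 and 0.18, and Ctrc at −0.16.

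Other bright features serve as a yardstick for ratios of this size. The 5 hybridisation control probe sets with a mean signal of at least 100000, which read transcripts added to the hybridisation mix, had log2 ratios from −0.12 to 0.06. Of the 7 protease genes at such signals, 6 lay above this range and Prss2 within it. Ctrc was dimmer than these controls and lay below their range. Its −0.16 lay inside the wider range of the 15 hybridisation control probe sets with a mean signal of at least 10000, −0.32 to 0.06. The control probe sets nearest to Ctrc in signal read −0.06 on the brighter side (77319 on the control array) and −0.32 on the dimmer side (52839). The 108 genes at or above percentile 99 of signal include the 8 members and reach down to a mean signal of 33400. They are thus a dimmer set than most members. Of these 108 genes, 48.1% had a log2 ratio above 0 and 51.9% below. By at least 1.1-fold, 7.41% of them were higher and 11.1% lower. The 100 of these that are not members had a median of −0.01.

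As deposited, the very brightest part of the array leaned the same way as the proteases. Apart from the members and the probe sets that share them, 42 probe sets reached 50% of an array maximum, and 33 of these had a log2 ratio above 0, with a median of 0.06. For the 12 member probe sets in that range the median was 0.14. Quantile normalisation gives both arrays the same top values and so removes a common lean there by its construction. Under it 15 of the 42 were above 0 and 23 below (median −0.01), and of the 12 member probe sets 9 were above 0, with the median reduced to 0.06. Among the 10 brightest other genes, 9 were higher in the threonine-deficient pool (4 with quantile normalisation). The bile salt-stimulated lipase Cel had 0.14, the ribonuclease Rnase1 0.12, the lipase cofactor Clps 0.10 and Reg1 0.12. Zg16 had 0.07, Pla2g1b 0.06 and Pnliprp2 0.01, and all of these turned lower with quantile normalisation. The granule membrane protein Gp2 was lower (−0.11), and 2210010C04Rik and Klk1 are given below. Of 4 genes of the translation machinery or growth control in that range, picked after their values were seen, Tpt1 had 0.00, Eef1a1 0.01, Rps29 0.04 and Rpl41 0.08.

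**Figure D4:**
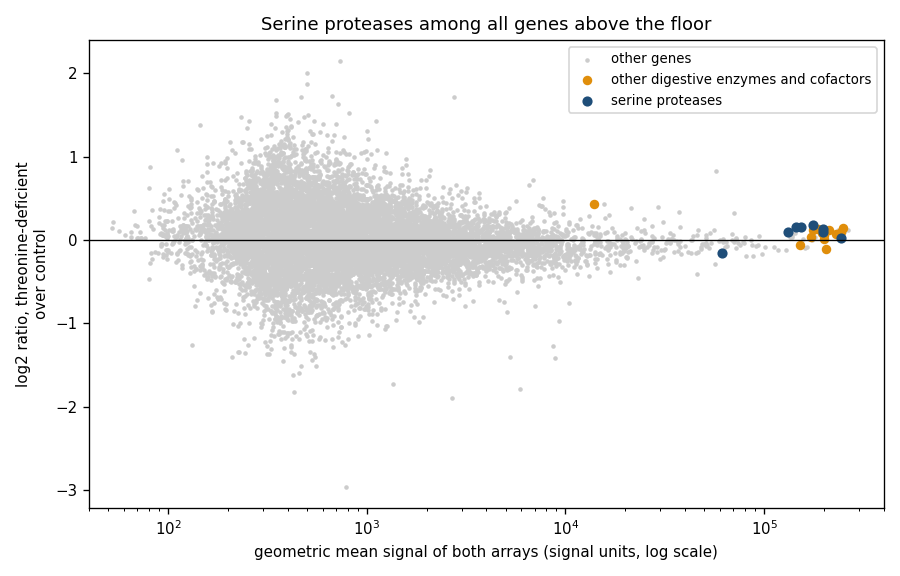
Log2 ratio of the threonine-deficient over the control pool against the geometric mean signal of both arrays (log axis) for the 10758 genes above the floor; the 8 serine proteases are blue and other digestive enzymes and cofactors orange. The proteases lie at the bright end, 7 above the zero line (6 with quantile normalisation) and Ctrc, the dimmest of them, below it.

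Other serine proteases of the pancreas were read from a list of 10 genes, of which 4 had a probe set of their own, all above the floor. 2210010C04Rik, the next protein-coding gene to Try4 on chromosome 6 in the RefSeq table, went from 253302 to 275999 (0.12), the maximum of the threonine-deficient array. Its other probe sets gave 0.14 and −0.10, a span wider than those of Prss2 and Cela3b. The kallikrein Klk1 went from 245324 to 261116 (0.09, but −0.0079 with quantile normalisation), with 0.09, −0.38 and 0.15 in its other probe sets. Prss23 had 0.41 with 0.01 in another probe set and the remaining reading below the floor, and the membrane-bound protease Prss8 had −0.22. Prss1, Try4, Try5, Try10, Gm5771 and 1810009J06Rik were not analysed here as single genes.

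Protease inhibitors and activators, a list of 17 genes, had 8 above the floor, 2 with a log2 ratio above 0 and 6 below, with a median of −0.09. Spink1, the trypsin inhibitor that acinar cells secrete with the zymogens, went from 152114 to 146949 (−0.05, but 0.02 when centred on the hybridisation controls). The acinar serpin Serpini2 went from 122199 to 112518 (−0.12) and the cysteine protease inhibitor Cst3 from 29561 to 27961 (−0.08). Of the lysosomal cathepsins on the list, Ctsl, which inactivates trypsinogen, had 0.25 with its other probe set below the floor, and Ctsb, which can activate it, had −0.11 with −0.24 to 0.13 in its others. The aspartic protease Ctsd went from 8833 to 6013 (−0.55), the largest absolute ratio of the list. Tmprss15, the enteropeptidase of the gut, lay below the floor on both arrays.

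Other digestive enzymes and cofactors of acinar cells were mostly higher as deposited. All 13 with a probe set of their own were above the floor, 11 with a log2 ratio above 0 and 2 below, with a median of 0.09, which became 7 above, 5 below and 0.02 with quantile normalisation. Only 2 of the 13 were at least 1.1-fold higher and none was that much lower. Transcription factors of acinar cells went both ways, 4 of 10 above 0 and a median of −0.12, with Ptf1a going from 15390 to 12748 (−0.27), Bhlha15, which governs the secretory apparatus, from 11831 to 14448 (0.29), Rbpjl from 4659 to 4914 (0.08) and Xbp1 from 64593 to 63333 (−0.03, but 0.04 when centred on the hybridisation controls). The dimmer probe sets of Xbp1 gave −0.32 to −0.07 and that of Bhlha15 gave 0.35.

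Whole pancreas holds other cells besides acinar cells, and fewer cells of a type cannot be told apart from less RNA per cell. Islet cell markers were lower in the threonine-deficient pool in 10 of 10 genes above the floor (9 when centred on the hybridisation controls), and their summed signal went from 177238 to 145289. Adipocyte markers were lower in 6 of 7, and their summed signal went from 42746 to 23590. Endothelial markers were higher in 6 of 6, from 2786 to 3550, with Kdr below the floor in the control pool. Their ratios of 0.18 to 0.57 stand beside local spreads of 0.34 to 0.57 for these dim genes. Signals below the floor enter these sums at the floor, which touches 2 islet and 2 adipocyte markers and 1 endothelial marker. Duct cell markers (3 of 6 above 0, from 31107 to 28932), leukocyte markers (4 of 6, from 12009 to 10916) and stellate cell and fibroblast markers (3 of 6, or 5 of 6 under loess, quantile or control centring, from 26430 to 26439) went both ways. Most of the duct sum came from Krt8 (−0.15), Krt18 (−0.33) and Muc1 (−0.12), while the dimmer Krt19 (0.30), Sox9 (0.89) and Car2 were higher. The falling duct sum therefore does not describe the list as a whole. From which cells the bright Krt8, Krt18 and Muc1 signals came was not tested, and they are not taken as specific to duct cells. Car2, a carbonic anhydrase, stood apart at 349 and 1541, a log2 ratio of 2.14 and the highest of the 10758 genes. Only Alb and Ttr of the 8 intestine and liver markers lay above the floor. Alb, at 279 and 320, was barely above it, and Ttr went from 13714 to 11538 (−0.25). Which cells gave the Ttr signal was not tested. For the proteases the same sum was 1262754 and 1354813, 7.29% higher in the threonine-deficient pool. The part that these cells have in the protease ratios was not tested.

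**Figure D5:**
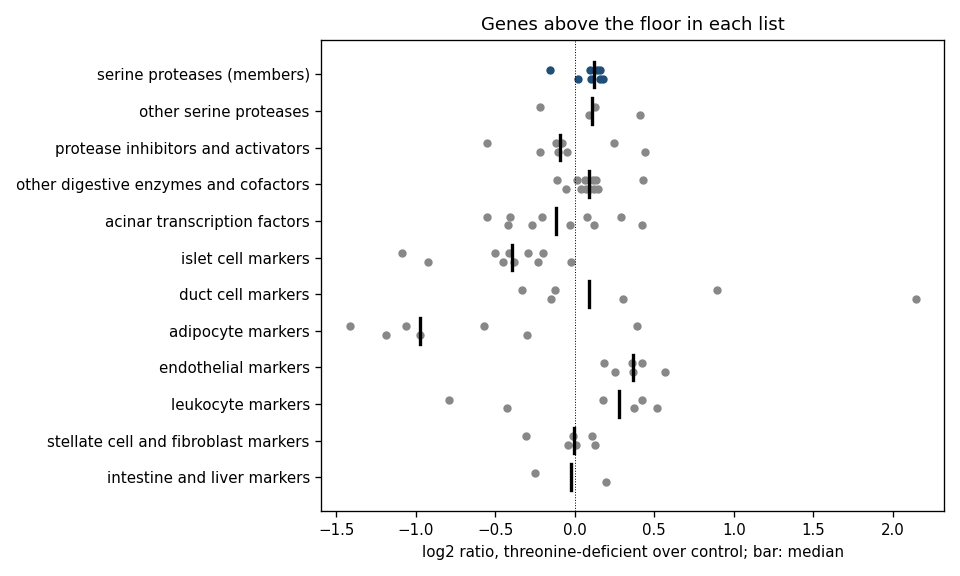
Log2 ratio of the threonine-deficient over the control pool for each gene above the floor in 12 lists, with 1 point per gene and the list median as a black bar. As deposited, the proteases lie between 0.02 and 0.18 apart from Ctrc at −0.16 (Prss2 is below 0 with quantile normalisation). All 10 islet markers and 6 of 7 adipocyte markers lie to the left of 0.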

How the data were processed

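RNA pools were measured on 1 array per group. The deposited values were linear signal intensities per probe set, which the authors made with MAS5 according to the labels' processing notes (version not stated there). Each array had been scaled as a whole (mean 500.0 after 2% of values were trimmed at each end), so ratios are relative to the array. No probe sequences or detection calls were used, and the number of arrays limits the precision.

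From these, genes were named through the platform annotation, updated by gene identifier to RefSeq symbols (GRCm38.p6). Probe sets with several symbols named no gene. Signals under the higher 60th percentile of both arrays, 264.9, were set to that value (the floor), and log2 was taken after. Each gene used its brightest probe set. Genes to be named were the 8 members, up to 4 of the brightest genes of each list and the 10 brightest other genes, whatever their ratios. Ctsb, Ctsd, Tmprss15, Kdr, Car2, Sox9, Tpt1, Eef1a1, Rps29 and Rpl41 were named outside this rule. Signals of different probe sets are not comparable as amounts of RNA. The members and lists were chosen with earlier results of these data known. Python 3.11.15, pandas 2.3.3 and scipy 1.17.1 were used, and the ratio and spread calculations were tested on simulated data. Alternatives covered scaling, the floor, probe set choice and the brightest probe sets.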

Additional observations from a re-analysis of the deposited data

How the results depend on the processing

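The median log2 ratio of the proteases, 0.12, lay between 0.06 (quantile normalisation) and 0.19 (centred on the hybridisation controls) under the 11 alternatives that kept at least 5 genes. Without probe sets at or above 50% of an array maximum, Prss3 and Ctrc remained, the median was −0.031, 1 gene was above 0 and 0 were at least 1.1-fold higher. Without sharing suffixes 4 of 5 genes were above 0. Prss2 had −0.057 with quantile normalisation. Centred on the hybridisation controls, 6 genes were at least 1.1-fold higher and 0 lower, where 41.3% and 25.7% of all genes were, and after loess 0 were lower. Ctrc was below 0 under every alternative run. Over all genes, the counts at least 2-fold higher and lower were 659 and 388 without a floor, 341 and 206 for a floor at percentile 50, 23 and 23 for percentile 75, 86 and 52 with a pseudocount, and 65 and 39 with the median over probe sets, against 138 and 94. The cause of these shifts was not tested. No paired analysis was possible because each group has 1 array and the result comes from no test.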
